A study of Homo sapiens with 12 samples.

Results

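SERTAD4, GNB4, KIF3B, SNCAIP, CHD5 and SFTA1P are 6 of the 58051 genes listed for MDA-MB-231 cells, and they were picked from the transcripts that were lower after YAP knockdown while standing outside the usual lists of YAP targets. They were chosen by their values in siYAP against siControl, so that comparison describes them and is given without a test. The choice favours high siControl values, so a lower level in any other group against siControl is favoured too. It likewise favours low siYAP values, so a higher level in any other group against siYAP is favoured. The double knockdown against siNELFA uses none of the libraries that chose them and is the only comparison tested here. In it SERTAD4, SFTA1P and KIF3B were again lower, at 55.9%, 45.7% and 68.7% of siNELFA, but none passed the threshold adjusted over all genes. For each of them every double knockdown library lay below every siNELFA library, as it did for 7.89% of the 17463 genes tested. The double knockdown libraries may be repeats of 1 sample by their names, which weakens this test. They also did not share the deviations by replicate number that the other groups had in common. A difference in preparation between the double knockdown and siNELFA therefore cannot be told apart from an effect of the YAP1 pool. GNB4 stood at 92.6% of siNELFA with overlapping libraries, and SNCAIP and CHD5 had too few counts to be tested on all 6 libraries.

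MDA-MB-231 is an established triple-negative breast cancer line. The labels name no engineered allele, and the cells received siRNA pools in 4 groups of 3 libraries each. The groups were a non-targeting pool (siControl), a pool against NELFA (siNELFA), a pool against YAP1 (siYAP) and both targeting pools (siNELFA+siYAP, the double knockdown). The labels give siRNA at 50 to 100 nM and harvest at 48 h and 72 h, and the methods of the study give 72 h for the sequenced RNA and speak of 3 independent biological replicates. The library names of siControl, siNELFA and siYAP end in N1, N2 and N3, whereas the double knockdown libraries are named N1_1, N1_2 and N1_3, so these last may be repeats of 1 sample. A knockdown by siRNA lowers a transcript without removing it. Both YAP knockdown groups received one and the same pool, so an effect through YAP1 and an effect of that pool on another transcript cannot be told apart.

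YAP is a transcriptional coactivator that the Hippo pathway holds in check, and it binds DNA through the TEAD factors, mostly at enhancers and often beside AP-1. Its best known targets, such as CTGF, CYR61 and ANKRD1, encode secreted matrix proteins and cytoskeleton-linked regulators of growth. NELFA is a subunit of the negative elongation factor that holds RNA polymerase II just downstream of promoters, and the study asked how this pausing bears on transcription driven by YAP.

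Total counts ran from 9608145 to 18803104 per library. YAP1 had 248 to 302 counts scaled to library size (CPM, per 1000000 reads) in the siControl and siNELFA libraries and 37.8 to 45.4 CPM in the siYAP and double knockdown libraries. NELFA had 22.3 to 33.2 CPM where it was not targeted and 6.33 to 9.88 CPM where it was. VIM, a mesenchymal marker of the line, was abundant in all libraries, and the hormone receptors ESR1 and PGR had at most 6 and 4 counts. Replicate 1 of siControl, siNELFA and siYAP stood apart from its partners, with a median absolute log2 difference over genes of 0.41 to 0.47 against 0.23 to 0.29 for replicates 2 and 3. The same difference was only 0.082 to 0.091 among the double knockdown libraries, less than in any other group. Between them the chi-square per degree of freedom was 2.86 for replicates 1 and 3, and 14.0 and 18.4 for the other pairs. Repeat libraries of 1 sample can exceed sampling noise too, and counting both reads of a pair raises the value. It therefore cannot tell repeats from separate samples, and the libraries were counted as 3, as labelled. If they are repeats of 1 sample, the spread of that arm is technical and the standard errors and p-values of its comparisons are too small. The tested comparison is therefore also given with the 3 libraries summed to 1 sample, whose spread is then taken from siNELFA alone. CDH1, the epithelial cadherin, had 230, 599 and 169 counts in these replicate 1 libraries and 0 to 17 counts in the other 9. Of 12 epithelial markers, CDH1, EPCAM, GRHL2 and KRT19 were higher in all 3 of these libraries than in any other library. GRHL2 had only 2 counts in each of them and 0 elsewhere. No marker was lower in all 3 than in any other library, though KRT8 had 156 CPM in siControl replicate 1 against 220 and 216 CPM in its partners. ESRP1 had no count anywhere, and the summed level of the list was 559 to 789 CPM in these 3 libraries against 589 to 685 CPM elsewhere. Values without the replicate 1 libraries are given beside the results on the 6 genes and on the classic targets.

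Promoter sequences from RefSeq (GRCh38.p14) covered 4 of the 6 genes, and those of SERTAD4, GNB4 and KIF3B are shown because they are the protein-coding members that could be tested. The window searched runs from 250 bases before to 50 bases after an annotated start site. The letters searched were GGAATG, the core bound by TEAD factors, and TGANTCA, the core bound by AP-1, both on either strand; capitals mark a match. Shown are the 250 bases before the start of SERTAD4 (chr1:210232546-210232795, plus strand), the 250 bases before the start of GNB4 (chr3:179451471-179451720, minus strand) and 30 bases just after the start of KIF3B (chr20:32277666-32277695, plus strand).
SERTAD4: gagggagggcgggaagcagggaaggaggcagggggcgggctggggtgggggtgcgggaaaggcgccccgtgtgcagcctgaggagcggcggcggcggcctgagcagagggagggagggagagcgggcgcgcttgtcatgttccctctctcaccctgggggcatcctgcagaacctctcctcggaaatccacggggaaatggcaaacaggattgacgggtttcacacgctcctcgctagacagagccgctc
GNB4: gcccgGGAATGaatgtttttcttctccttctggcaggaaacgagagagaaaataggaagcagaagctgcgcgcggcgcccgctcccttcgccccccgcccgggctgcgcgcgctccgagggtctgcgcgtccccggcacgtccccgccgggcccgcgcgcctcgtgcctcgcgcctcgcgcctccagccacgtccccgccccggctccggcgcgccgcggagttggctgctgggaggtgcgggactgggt
KIF3B: ccggggcagcggGGAATGgctgagccaggg
The GNB4 match began at position -245 from the start site and the KIF3B match at position 28 after it. No match to GGAATG was found in either window of SERTAD4 or of SNCAIP, and none of the 6 windows of these 4 genes held TGANTCA. Among all 35116 promoter windows of this length, 14.0% held GGAATG and 7.7% held TGANTCA. These are matches of letters in short windows and do not show binding.

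By the authors' TPM values, which scale reads to one common total and take gene length into account, SFTA1P had the highest level of the 6 in siControl, with 28.9 ± 2.86 TPM (SD, n = 3). KIF3B had 27.3 ± 1.53 TPM, and its libraries overlapped those of SFTA1P. GNB4 followed at 23.4 ± 3.11 TPM, with its highest library, at 25.3 TPM, just under the lowest of KIF3B, at 25.6 TPM. SERTAD4 had 5.66 ± 1.35 TPM. In CPM, which ignore gene length, the siControl means were 14.3 for SFTA1P, 131 for KIF3B, 82.5 for GNB4 and 17.9 for SERTAD4. The first place of SFTA1P thus rests on the length behind the TPM values. SNCAIP, at 1.34 ± 0.65 TPM, and CHD5, at 0.53 ± 0.53 TPM, were near the limit of detection and overlapped each other.

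**Figure D1:**
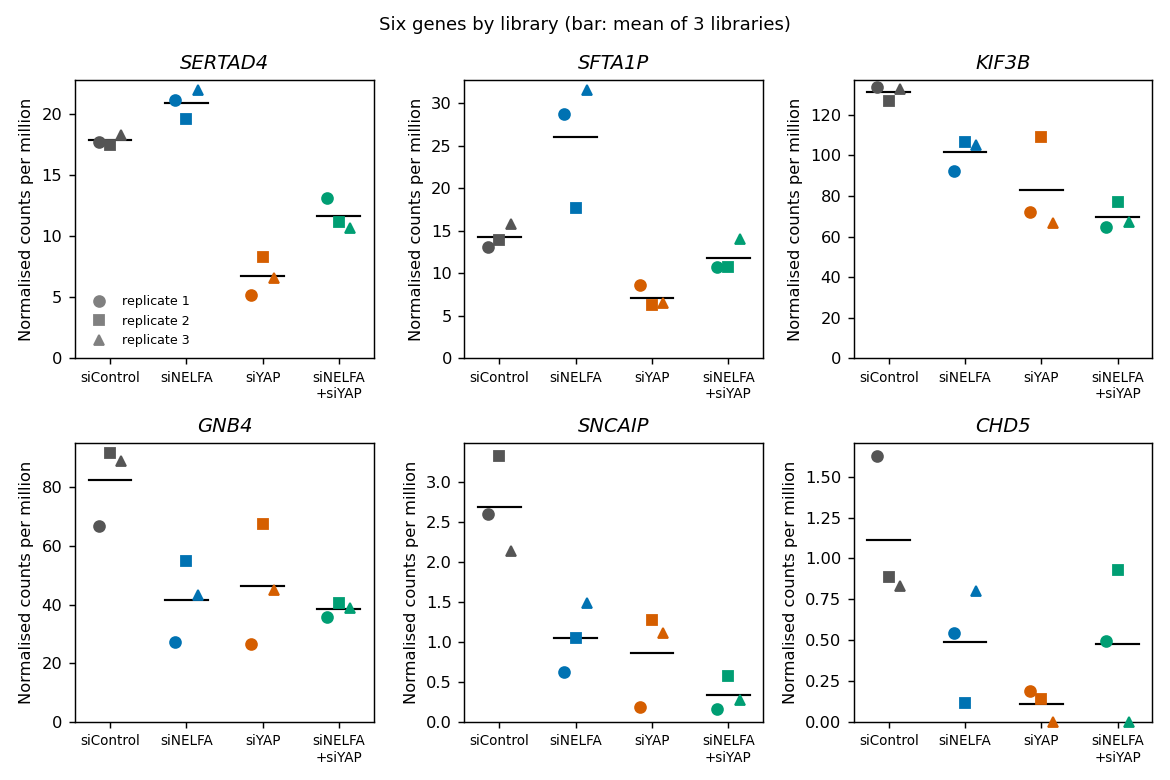
Normalised counts (CPM) of the 6 genes in each library of the 4 siRNA groups, with symbols for replicates 1 to 3, a horizontal bar at the mean and each vertical axis starting at 0. SERTAD4 and SFTA1P were lower in both YAP knockdown groups than in siNELFA, while GNB4 and KIF3B were already lower in siNELFA than in siControl.

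SERTAD4 (ENSG00000082497) spans 210232796 to 210246631 on chromosome 1 (plus strand) and encodes a protein of the SERTA domain family, whose better known relatives act as cofactors of transcription. Its level was 17.8, 17.5 and 18.3 CPM in siControl replicates 1 to 3 and 21.2, 19.6 and 22 CPM in siNELFA. In siYAP it was 5.20, 8.32 and 6.62 CPM, and in the double knockdown 13.1, 11.2 and 10.7 CPM. The 4 groups did not overlap for this gene, with siYAP lowest, the double knockdown next, then siControl and siNELFA. Mean levels were 37.6% of siControl in siYAP, 65.3% in the double knockdown and 117% in siNELFA. The log2 fold change of siYAP against siControl was -1.40 (standard error 0.25), the 34th lowest of 17296 genes, a place favoured by the choice of the gene. The double knockdown had a log2 fold change of -0.84 against siNELFA (standard error 0.16, 95% interval -1.20 to -0.47, edgeR quasi-likelihood test with p adjusted over all genes = 0.735, unadjusted p = 0.000811), and of 0.78 against siYAP (standard error 0.23). The rise over siYAP is favoured by the choice of the gene for low siYAP values. Without siNELFA replicate 1 the difference from siNELFA was -0.83 with an adjusted p of 0.0221 by edgeR. With any other single library left out, the difference had an adjusted p of 0.254 or more. With the double knockdown summed to 1 sample it was -0.85 (standard error 0.32, edgeR unadjusted p = 0.0383).

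SERTAD4 shares 177 exonic bases, 3.24% of its exonic length, with SERTAD4-AS1, a gene on the opposite strand. Whether the counting used strand is not stated. SERTAD4-AS1 had 30 to 43 counts in siControl, 42 to 86 in siNELFA, 9 to 60 in siYAP and 12 to 40 in the double knockdown. Replicate 1 of siYAP was the only library in which it had more counts than SERTAD4, 60 against 55. Its groups overlapped in siYAP against siControl and in the double knockdown against siNELFA, where its log2 fold change was -1.25 (standard error 0.55), or -0.68 (standard error 0.44) without siNELFA replicate 1. None of the 5 genes of the SERTA family passed the adjusted threshold in the double knockdown against siNELFA. SERTAD2, a transcriptional cofactor of the family, had -0.45 (standard error 0.11, edgeR unadjusted p = 0.00424) and, without siNELFA replicate 1, -0.39 with an adjusted p of 0.0326 by edgeR, and the other 3 relatives, SERTAD1, SERTAD3 and CDCA4, lay between 0.07 and 0.18.

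SFTA1P (ENSG00000225383) is a long non-coding RNA gene spanning 10784437 to 10795047 on chromosome 10 (minus strand), whose name marks it as a surfactant-associated pseudogene. It had 13.1, 14.0 and 15.8 CPM in siControl and 28.8, 17.7 and 31.5 CPM in siNELFA. The siYAP libraries had 8.61, 6.28 and 6.56 CPM, and those of the double knockdown 10.8, 10.7 and 14.0 CPM. All siNELFA libraries lay above siControl and all siYAP libraries below it, while the double knockdown overlapped siControl. Its log2 fold change was 0.87 (standard error 0.26) in siNELFA and -0.99 (standard error 0.24) in siYAP, and the means were 182% and 50.0% of siControl. Between the double knockdown and siNELFA it was -1.13 (standard error 0.25, 95% interval -1.71 to -0.55), where edgeR gave an unadjusted p of 0.00216 and an adjusted p of 0.735. Without siNELFA replicate 1 it was -1.04, with an adjusted p of 0.0411 by edgeR, and with the double knockdown summed to 1 sample -1.10 (standard error 0.44, edgeR unadjusted p = 0.0459). With any other single library left out, the adjusted p of SFTA1P was 0.266 or more by edgeR. The double knockdown also lay above every siYAP library (log2 fold change 0.72, standard error 0.22), which is favoured by the choice of the gene for low siYAP values. Of 8 surfactant genes listed, SFTA1P was the only one with enough counts to be tested.

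KIF3B (ENSG00000101350), which spans 32277651 to 32335011 on chromosome 20 (plus strand), encodes a motor subunit of heterotrimeric kinesin-2, which pairs with KIF3A and the adaptor KIFAP3 and carries cargo along microtubules, also inside cilia. Its level was 134, 127 and 133 CPM in siControl and 92.4, 107 and 105 CPM in siNELFA. In siYAP it was 72.1, 109 and 66.8 CPM, and in the double knockdown 64.5, 76.9 and 67.0 CPM. All 3 knockdown groups lay below siControl, and replicate 2 of siYAP, at 109 CPM, lay above every siNELFA library. Against siControl, siNELFA had a log2 fold change of -0.36 (standard error 0.15), siYAP one of -0.65 (standard error 0.23) and the double knockdown one of -0.92 (standard error 0.12). The double knockdown against siNELFA gave -0.54 (standard error 0.12, 95% interval -0.82 to -0.27), where edgeR gave an unadjusted p of 0.00198 and an adjusted p of 0.735. Without siNELFA replicate 1 it was -0.60 (standard error 0.088), with an adjusted p of 0.00659 by edgeR, and with the double knockdown summed to 1 sample -0.54 (standard error 0.26, edgeR unadjusted p = 0.0850). With any other single library left out, the adjusted p of KIF3B was 0.257 or more by edgeR. In the double knockdown against siNELFA its partner KIF3A had -0.01 (standard error 0.19). The 95% interval of -0.46 to 0.43 does not show that KIF3A stayed level. KIFAP3 had 0.45 (standard error 0.16, edgeR unadjusted p = 0.0270), and 0.33 without siNELFA replicate 1. The other 4 kinesin-2 genes ran from -1.10 to 0.45, and none of the 5 passed the adjusted threshold.

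GNB4 (ENSG00000114450), which spans 179396088 to 179451476 on chromosome 3 (minus strand), encodes a beta subunit of heterotrimeric G proteins, which relay signals from G protein-coupled receptors. It had 66.8, 91.9 and 88.9 CPM in siControl, 27.1, 54.7 and 43.1 CPM in siNELFA, 26.6, 67.5 and 45.0 CPM in siYAP and 35.7, 40.6 and 38.9 CPM in the double knockdown. Replicate 2 of siYAP, at 67.5 CPM, lay above replicate 1 of siControl, at 66.8 CPM, so these groups overlapped. Mean levels in siNELFA, siYAP and the double knockdown were 50.5%, 56.2% and 46.5% of siControl, and these 3 groups overlapped one another. Against siControl, siNELFA had a log2 fold change of -0.98 (standard error 0.27), siYAP one of -0.82 (standard error 0.33), with -1.10 (standard error 0.15) for the double knockdown. Between the double knockdown and siNELFA it was -0.11 (standard error 0.23, 95% interval -0.65 to 0.43), with an edgeR adjusted p of 0.915, and without siNELFA replicate 1 it was -0.34 with an adjusted p of 0.197. The interval reaches down to -0.65, so the missed threshold does not show that GNB4 stayed level.

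Of the exonic bases of GNB4, 1941 or 24.3% are shared with a gene on the opposite strand (ENSG00000242539, listed as AC007620.3). That gene had 8 to 34 counts per library, against 281 to 1708 for GNB4. Among the other 4 G protein beta subunits, the log2 fold changes of the double knockdown against siNELFA ran from -0.14 to 0.72, and among the 6 gamma subunits with enough counts, of 12 listed, from -1.56 to 0.27, with none past an unadjusted p of 0.05 by edgeR.

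SNCAIP (ENSG00000064692), which spans 122311354 to 122464219 on chromosome 5 (plus strand), encodes synphilin-1, a cytoplasmic adaptor protein. It had 24, 60 and 41 counts in siControl, 8, 18 and 26 in siNELFA, 2, 18 and 18 in siYAP, and finally 2, 8 and 5 after the double knockdown. Scaled to library size, all 3 knockdown groups lay below siControl and every double knockdown library lay below every siNELFA library. Against siControl, siNELFA had a log2 fold change of -1.33 (standard error 0.43), siYAP one of -1.59 (standard error 0.60) and the double knockdown one of -2.97 (standard error 0.49). It was too low to pass the filter in the double knockdown against siNELFA. Without that filter its log2 fold change was -1.63 (95% interval -3.04 to -0.22, adjusted p = 0.673 by edgeR). Without siNELFA replicate 1 it passed the filter, at -1.88 (standard error 0.64, adjusted p = 0.190 by edgeR). The siYAP value leans on replicate 1, which had 2 counts and is listed at 0 TPM, and without the replicate 1 libraries it was -1.17 (standard error 0.43). Of 3 synucleins and synphilin partners with enough counts, 1 was lower and 2 were higher in the double knockdown against siNELFA. SIAH1, a ubiquitin ligase of synphilin-1, had -0.31 (standard error 0.15) there and -0.23 (standard error 0.14) without siNELFA replicate 1. SIAH2 had 0.03 (standard error 0.16) and SNCG 0.66 (standard error 0.29).

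CHD5 (ENSG00000116254), which spans 6101787 to 6180321 on chromosome 1 (minus strand), encodes a chromatin remodeler of the CHD family that is known from neurons and as a tumour suppressor. It had 15, 16 and 16 counts in siControl, 7, 2 and 14 in siNELFA, 2, 2 and 0 in siYAP, and finally 6, 13 and 0 after the double knockdown. Its log2 fold change in siYAP, -3.31 (standard error 0.86), was the lowest of the 17296 genes fitted, and the gene passed the filter only through the siControl libraries. That place rests on few counts and is favoured by the choice of the gene on these libraries. The 0 counts of replicate 3 allow up to 0.186 CPM in siYAP and up to 0.161 CPM in the double knockdown, at 3 counts each, or 0.371 and 0.322 CPM at 6 counts if both reads of a fragment were counted. In the double knockdown, replicates 1 and 2 lay at 0.49 and 0.93 CPM, within or above the range of siNELFA, and the unfiltered log2 fold change against siNELFA was -0.07 (95% interval -2.08 to 1.93). Without siNELFA replicate 1 the gene passed the filter, at -0.02 (standard error 1.05). At this depth a further fall of CHD5 in the double knockdown was not detectable. The other 8 CHD remodelers lay between -0.18 and 0.18 in this comparison, with none past an unadjusted p of 0.05 by edgeR.

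Low counts in these libraries were mostly even numbers, 81.8% to 84.8% of all counts from 1 to 10. That is the pattern of counting both reads of a pair, and by it the 16 counts of CHD5 in 2 siControl libraries would stand for 8 sequenced fragments each. In bulk RNA, a transcript lost from some cells and a transcript lowered in all of them cannot be told apart.

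**Figure D2:**
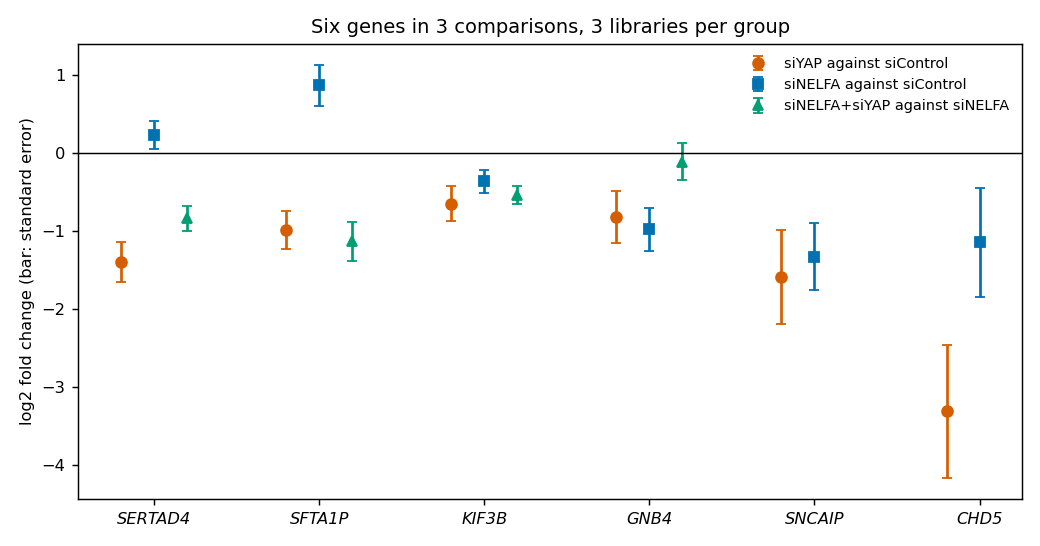
The log2 fold changes of the 6 genes in siYAP against siControl (circles), siNELFA against siControl (squares) and siNELFA+siYAP against siNELFA (triangles), with bars for the standard error and no triangle for SNCAIP and CHD5, which did not pass the filter. SERTAD4 and SFTA1P were above 0 in siNELFA and below 0 in both YAP knockdown comparisons, while GNB4 lay below 0 against siControl and near 0 in the double knockdown against siNELFA.

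Read over the set, 5 of the 6 genes had every siYAP library below every siControl library, the exception being GNB4. That was so for 4.2% of the 17296 genes fitted in the comparison, and nothing is read from the count because it chose the genes. In the double knockdown against siNELFA, 3 of the 4 genes tested had every library below every siNELFA library, where 7.89% of 17463 genes did. The same 3 were lower at an unadjusted p under 0.05 by edgeR, where 3.93% of genes were. None was lower at an adjusted p under 0.05, where the share was 0.00573%, a single gene, YAP1 itself. SNCAIP and CHD5 are not among these 4. Libraries as close together as those of the double knockdown separate easily from another group, so these counts carry the doubt about that arm.

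The adjusted calls depended on siNELFA replicate 1 and on the tool. Without that library edgeR called 140 genes lower, 0.766% of 18286, and SERTAD4, SFTA1P and KIF3B were among them. In that fit all 6 genes were tested, and 5, all but CHD5, had every library below both remaining siNELFA libraries, where 16.8% of genes did. These calls set 2 siNELFA libraries against the 3 closely spaced double knockdown libraries. With any other single library left out, edgeR called none of the 6 genes. With the double knockdown summed to 1 sample, edgeR called 0 of 19448 genes, YAP1 included, with 35 lower and 16 higher at an unadjusted p under 0.05, and the adjusted p of all 6 genes was 1.00. DESeq2 on all 6 libraries called 38 genes lower, 0.214% of 17767, with SERTAD4 (adjusted p = 0.0335) and SFTA1P (adjusted p = 0.0274) among them and KIF3B not.

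**Figure D3:**
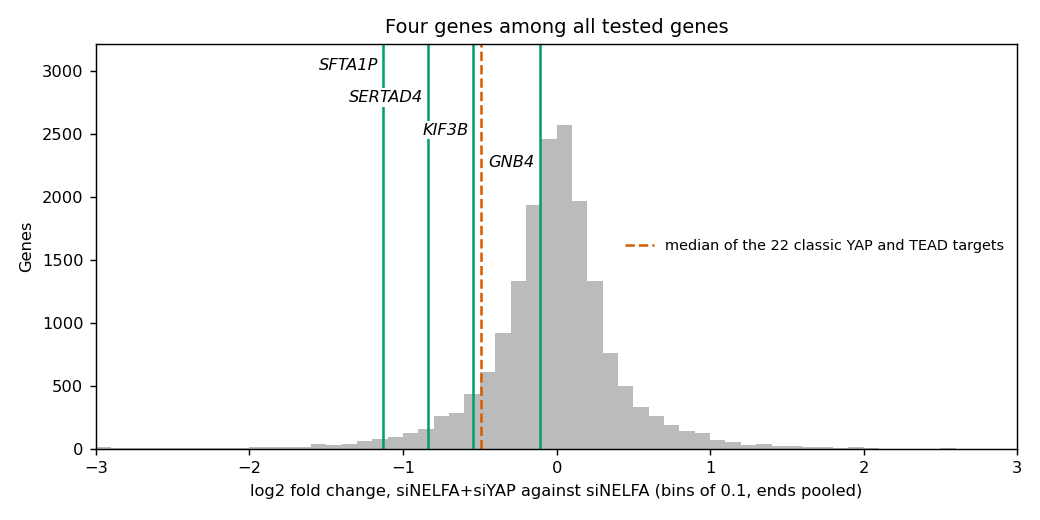
Distribution of the log2 fold change of siNELFA+siYAP against siNELFA over all 17463 genes tested (grey bars, number of genes per bin), with solid lines at the 4 members tested and a dashed line at the median of 22 classic YAP and TEAD targets. SFTA1P, SERTAD4 and KIF3B lie in the lower tail at -1.13, -0.84 and -0.54, and GNB4 lies inside the bulk at -0.11.

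For scale, 19 of 22 classic YAP and TEAD targets were lower in the double knockdown than in siNELFA, with a median log2 fold change of -0.49 against -0.0099 over all genes. Of these, 12 were lower at an unadjusted p under 0.05 by edgeR, where 3.93% of all genes were. None passed the adjusted threshold, the lowest adjusted p being 0.165 for ANKRD1, at -1.11. Without siNELFA replicate 1, 20 of the 22 were lower, with a median of -0.37 against -0.0017 over all genes. At the adjusted threshold edgeR called 8 of them lower, where it called 0.766% of all genes lower. In siYAP against siControl, 19 of the 22 were lower with a median of -0.29, against -0.0017 over all genes, and without the replicate 1 libraries 21 were lower with a median of -0.35. All 6 genes described here lay below that median of -0.29 in siYAP, which nothing is read from, since they were picked for being low.

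By replicate, the labels' numbers pair siControl, siNELFA and siYAP, and differences within a number can be read one by one. SERTAD4 differed between siYAP and siControl by -1.75, -1.06 and -1.45 in log2 CPM for replicates 1 to 3, SFTA1P by -0.60, -1.14 and -1.25, and CHD5 by -2.45, -1.89 and -2.86. KIF3B gave -0.89, -0.22 and -0.99 and GNB4 -1.32, -0.44 and -0.98, so replicate 2 showed the smallest difference for both. SNCAIP gave -3.08, -1.30 and -0.86. All 18 differences were below 0, which nothing is read from, since these libraries chose the genes. The fits above did not use this pairing. With the replicate number as a block, siYAP against siControl gave -1.41 (standard error 0.20) for SERTAD4 and -1.01 (standard error 0.20) for SFTA1P. KIF3B had -0.68 (standard error 0.16) and GNB4 -0.89 (standard error 0.18) in that fit. SNCAIP had -1.64 (standard error 0.51) and CHD5 -3.34 (standard error 0.81). Between siNELFA and siControl, SERTAD4 (0.25, 0.16 and 0.26) and SFTA1P (1.13, 0.34 and 0.99) were above 0 in every replicate. KIF3B, GNB4, SNCAIP and CHD5 were below 0 in every replicate, CHD5 by only -0.05 in replicate 3. The siControl libraries helped choose the genes, which by itself favours values below 0 here.

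**Figure D4:**
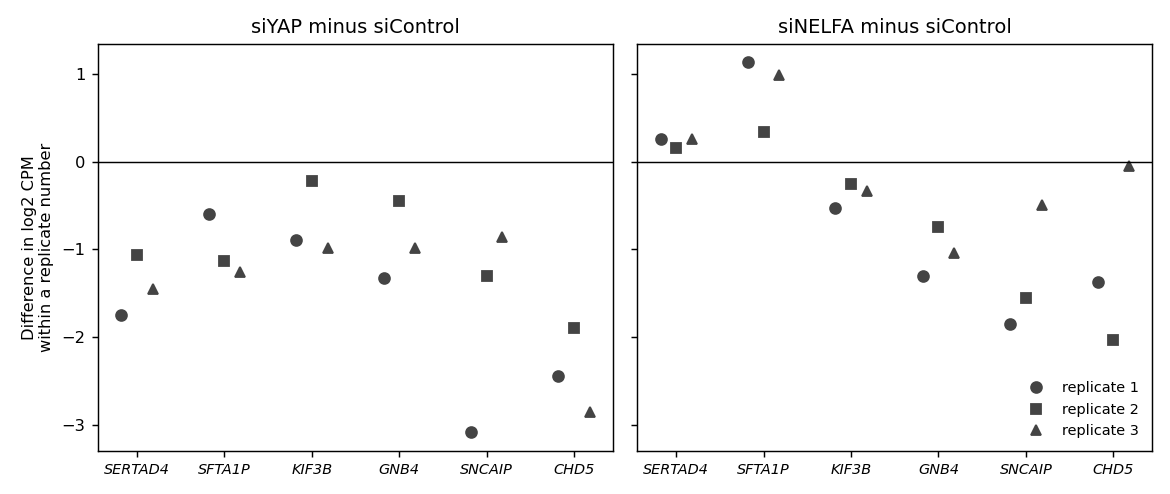
Differences in log2 CPM within each replicate number, siYAP minus siControl on the left and siNELFA minus siControl on the right, for the 6 genes. On the left all points lie below 0, where the genes were chosen on these same libraries. On the right SERTAD4 and SFTA1P lie above 0 and the other 4 genes below it.

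Without the replicate 1 libraries, the log2 fold changes of siYAP against siControl were -1.25 for SERTAD4, -1.20 for SFTA1P, -0.54 for KIF3B, -0.67 for GNB4, -1.17 for SNCAIP and -3.53 for CHD5. In siNELFA against siControl they were 0.23 for SERTAD4, 0.74 for SFTA1P, -0.28 for KIF3B, -0.87 for GNB4, -1.09 for SNCAIP and -0.88 for CHD5. The double knockdown against siYAP gave 0.64 for SERTAD4, 0.89 for SFTA1P, -0.34 for KIF3B and -0.55 for GNB4, and against siControl it gave -0.61 for SERTAD4, -0.31 for SFTA1P, -0.89 for KIF3B, -1.22 for GNB4, -2.99 for SNCAIP and -0.91 for CHD5. Every one of these values kept the sign it had with replicate 1. The comparisons overlap in the libraries they use, so like signs in them are not separate evidence. Values above 0 against siYAP are favoured by the choice of the genes.

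Across the 12 libraries the 6 genes did not follow one pattern. The log2 CPM of SERTAD4 and SFTA1P had a Pearson r of 0.84, and SNCAIP had 0.87 with KIF3B and 0.84 with GNB4, while GNB4 and SFTA1P had -0.10. Over the 9 libraries left without replicate 1 of siControl, siNELFA and siYAP, these values were 0.90, 0.86, 0.85 and 0.0060. All 6 genes were picked for being lower in siYAP, which by itself favours a like pattern. Among genes averaging at least 50 counts per library, those most like SERTAD4 were UAP1 (r = 0.94), VMA21 (0.91) and MTHFD2 (0.91). For SFTA1P they were EDN1 (0.94), which encodes the vasoconstrictor endothelin-1, MYL9 (0.93), a myosin light chain, and TNFAIP1 (0.93). KIF3B was closest to SKP1 (0.95), a subunit of SCF ubiquitin ligases, CTD-2410N18.5 (0.95) and SYDE2 (0.92). GNB4 was closest to ARHGAP11A (0.96), RBM17 (0.96) and CCNB2 (0.95), the last a cyclin of mitosis. SNCAIP was closest to DPY19L3 (0.94), PPP1CC (0.93) and DHX15 (0.93), and CHD5 less closely to CWC25 (0.84), SCHIP1 (0.84) and TRAF6 (0.82). These correlations describe 12 libraries that share their groups and the shift of the replicate 1 libraries, and those of SNCAIP and CHD5 rest on few counts. Without the replicate 1 libraries the 18 values lay between 0.80 and 0.97, but the genes were picked on 12 libraries that include these 9.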

How the data were processed

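The authors sequenced 12 libraries of MDA-MB-231 total RNA, 3 per siRNA group, after removal of ribosomal RNA and with a kit that marks strand. Per the methods, reads were aligned by the authors to GRCh38 (Ensembl release 87) with STAR in 2-pass mode. Counts were deposited as featureCounts gave them for each gene, in whole numbers and not normalized, and the counter's version, strand setting and treatment of read pairs are not given in the sources used here. The deposited TPM values are the authors' per-library estimates scaled by gene length, and served for levels between genes and as an alternative. A deposited FPKM table was not used, since it scales to the TPM values.

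The 6 genes, the family lists and the list of 22 targets were chosen with earlier results of these data known. From the counts, siNELFA+siYAP was compared with siNELFA by edgeR 4.0.16 in R 4.3.3 (quasi-likelihood test, two-sided, TMM factors) on the 6 libraries of both groups. The filter was filterByExpr (at least 10 counts, 15 in total, proportion 70%), and p-values were adjusted by Benjamini-Hochberg over all tested genes at 0.05. The standard error is the log2 fold change divided by the square root of F. Other comparisons were fitted likewise, without pairing by replicate number unless a block is named, and are printed without p. CPM were scaled by TMM over the 12 libraries, and log2 CPM used a prior count of 2. Named are the 6 genes, list genes past the adjusted threshold or needed beside one of the 6, and for each of the 6 the 3 genes of highest Pearson r. CDH1, VIM, ESR1, PGR, ANKRD1 and the epithelial list were named after values were seen. Some results for single list genes are left out. Alternatives were DESeq2 1.42.0, RLE factors, no filter, all 12 libraries, a replicate block, limma 3.58.1 on log2(TPM + 1) and log2(TPM + 0.1), and each library left out in turn. Leaving out all replicate 1 libraries that stood apart and summing the double knockdown to 1 sample were chosen after seeing the data. The test was run first on simulated data.

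For the pairing check, each library's deviation from its group mean was correlated with that of the same replicate number in another group over 12971 genes. The r was 0.642 to 0.886 within the first 3 groups (siControl, siNELFA, siYAP) and -0.0523 to 0.0256 against the double knockdown, so the numbers, taken from the labels, pair the first 3 groups only. The double knockdown libraries all carry N1 in their names, and their replicate numbers come from the titles. Whether they were prepared apart from the siNELFA libraries was not tested, and such a difference would enter the fold changes of the tested comparison. Coordinates are from GENCODE release 44 on GRCh38. Intervals on 0 counts cover counting error only. Figures were drawn with matplotlib 3.10.9.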

Additional observations from a re-analysis of the deposited data

How the results depend on the processing

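In siNELFA+siYAP against siNELFA, edgeR called 1 gene at the adjusted threshold. DESeq2 called 48, edgeR without the filter 26, and all 12 libraries with a replicate block 8, a fit added after seeing the data. Leaving out single libraries gave 1 to 228 genes, the highest without siNELFA replicate 1, and leaving out replicate 1 of siNELFA, siYAP and siControl in a fit of all groups, also added later, gave 70. Summing the double knockdown libraries to 1 sample, added later too, gave 0. Of the 6 genes, 0 were called, against 2 by DESeq2, 0 to 3 without single libraries and 1 in the added fit without replicate 1 (SERTAD4, adjusted p = 0.0357). In that added edgeR fit the adjusted p was 0.0684 for SFTA1P and 0.142 for KIF3B. Of the list genes, DESeq2 called 5 and edgeR 1. The paired fit for this comparison, with the replicate number as a block, called 1 gene and none of the 6 (SERTAD4 -0.84, adjusted p = 0.863), and the numbers do not pair these groups. SERTAD4 ran from -0.93 to -0.72, KIF3B from -0.62 to -0.44 and SFTA1P from -1.35 to -0.96 over 17 alternatives, below 0 in all. GNB4 changed sign, to 0.043 by limma on log2(TPM + 1), 0.051 on log2(TPM + 0.1) and 0.043 with no filter on TPM, and ran from -0.34 to 0.13 without single libraries. Apart from the left-out libraries, the cause of these moves was not tested. Counts of SNCAIP and CHD5 limit what can be said of them.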
